A study of Canis lupus familiaris with 6 samples.

Results

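The canine miRNAs cfa-miR-203 and cfa-miR-205, here miR-203 and miR-205, belong to stratified and basal epithelium, and were chosen by name on an Agilent array. They are 2 of the 289 miRNAs on the array, and each has 2 probes of 20 spots on every array. Both were detected on 1 array of 6, a bright array of Sca1+ cells. miR-203 had a total gene signal of 422 there and miR-205 one of 101, and neither was detected in any Sca1- sample. Of the 289 miRNAs, 24 (8.3%) were detected on that array alone, these 2 among them. The other Sca1+ arrays were far dimmer, and on a Sca1- array a miR-205 probe lay just under the detection limit.

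The samples were canine mammary cancer cells of the established lines CMT-U27, CMT-U309 and P114, each stained for stem cell antigen 1 (Sca1) and divided by flow cytometry. Every line gave 1 Sca1+ sample, which the labels call cancer stem cells, and 1 Sca1- sample, which they call the control. That makes 3 samples per fraction and 2 per line, with no treatment, allele or time point in the labels. The labels describe both P114 samples as grown with macrophages and the other samples as mono-culture, and say nothing of how many macrophages remained after the sort. The replicates are the lines, and separate cultures of a line are not described. Over all arrays, a p-value for the fractions thus reads how their difference varied between the lines, and part of that spread may be technical.

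miR-203 rises as keratinocytes leave the basal layer, and represses p63, the transcription factor that maintains basal and stem cells of stratified epithelia. miR-205 is abundant in basal and myoepithelial cells, those of the mammary gland among them, and with the miR-200 family represses ZEB1 and ZEB2, the transcription factors that silence epithelial genes. Both are studied as marks of basal and squamous identity in epithelial tumours.

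The probes are shown because every value given here rests on them, and each pair differs by 1 base. Capitals mark the base that the longer probe has and the shorter lacks. All are the deposited sequences, written 5′ to 3′.
miR-203, 17 bases: ctagtggtcctaaacat
miR-203, 18 bases: ctagtggtcctaaacatT
miR-205, 15 bases: cagactccggtggaa
miR-205, 16 bases: cagactccggtggaaT
The reverse complement of the longer miR-203 probe, the stretch of miRNA it pairs with in DNA letters, is aatgtttaggaccactag, and that of the longer miR-205 probe is attccaccggagtctg. The miR-205 probes had a higher GC content (60.0% and 56.2%) than those of miR-203 (41.2% and 38.9%). The longest run of letters that the 2 miRNAs' longer probes share is 4 bases. The longest run that either miR-205 probe shares with a probe of any other miRNA on the array is 6 bases, and for the miR-203 probes it is 8. The deposited files place the longer probes on canFam2 at chr8:74819637-74819653 for miR-203 and chr7:11048085-11048099 for miR-205, with no strand, and each span is 1 base shorter than its probe. In the RefSeq gene table, which is of another dog assembly, MIR203 lies within the span of ASPG, between TDRD9 and KIF26A. MIR205 overlaps no other gene of the table and lies between PLXNA2 and CAMK1G. Exon and intron positions were not used here.

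The 6 arrays fell into a bright set, B1, B2 and B3, with 89 to 111 detected miRNAs, and a dim set, D1, D2 and D3, with 9 to 39. Summed total gene signals were 69282 to 70794 intensity units on the bright arrays and 320 to 3228 on the dim ones. The scanner files and the deposited value table assign 4 of the 6 arrays to different samples, and which assignment is right was not settled. B1, the array that detected both miRNAs, is Sca1+ by either source, and B2 and B3 are Sca1-. By scanner file, B1 is CMT-U309, B2 CMT-U309 and B3 P114. By value table, B1 is P114, B2 CMT-U27 and B3 P114. B1 is therefore a mono-culture by scanner file and a culture with macrophages by value table. D1 is Sca1+ of CMT-U27 by both. D2 is Sca1- of CMT-U27 by scanner file and Sca1+ of CMT-U309 by value table, and D3 is Sca1+ of P114 or Sca1- of CMT-U309.

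On B1 the spots of both miR-203 probes stood far above background. The 17-base probe had a processed signal (background-subtracted intensity) of 113.5 ± 6.85 (SD over 18 spots without outlier flags) and the 18-base probe one of 198 ± 10.5 (SD over 19 spots). The single spots ran from 104 to 128 and from 173 to 214, so spots of a probe differed little and the 2 probes did not overlap. In the upper part of the array the longer probe gave 201 ± 7.89 (SD over 10 spots) and in the lower part 194 ± 12.3 (SD over 9 spots), so the signal was not confined to 1 region. Negative-control spots on B1 had a mean of 2.16 ± 2.39 (SD over 421 spots) and a highest value of 7.91, below every miR-203 spot. These SDs are over spots of 1 hybridisation and give the technical spread of that array, not the spread between cultures.

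miR-205 was dimmer on B1 and showed the same order of its probes. The 15-base probe had a signal of 26.8 ± 2.35 (SD over 19 spots) and the 16-base probe one of 48.0 ± 4.10 (SD over 20 spots). The lowest spot of the shorter probe was 23.5, above the highest negative control. The spot-to-spot coefficient of variation was 8.78% and 8.54%, against 6.03% and 5.32% for miR-203. The longer probe was 1.79 times as bright as the shorter for miR-205 and 1.74 times for miR-203. Of 67 miRNAs with 2 probes that differ by 1 base and both well above background on B1, 63 had the longer probe brighter, with a median ratio of 1.96. Both ratios thus lie near the middle for this design.

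On the other arrays the spots lay near 0, except on B2. The longer miR-203 probe averaged 2.52 ± 2.46 (SD over 20 spots) on B3. On D1 it averaged -0.55 ± 2.09, on D2 -0.13 ± 1.98 and on D3 0.15 ± 2.54. The longer miR-205 probe averaged -0.05 ± 2.01 (SD over 19 spots) on B3. Its averages were -0.78 ± 1.79, 0.59 ± 1.92 and -0.73 ± 1.58 on D1, D2 and D3. All 8 means lie below the mean of the negative controls of their array, which ran from 3.03 to 3.81 on these 4 arrays.

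On B2 a miR-205 probe lay above most negative-control spots, although the detection flag was not set. The 16-base probe averaged 12.3 ± 1.88 (SD over 20 spots), with spots from 9.0 to 15.6, and all 20 lay above the 95th percentile of the negative controls on B2 (7.80). No spot was called well above background. Of 459 probes of undetected miRNAs on B2, 2 had every spot above that percentile (0.436%), this one among them. The 15-base probe averaged 7.01 ± 2.36 (SD over 19 spots), under that percentile. For miR-203 on B2 the 18-base probe averaged 7.88 ± 2.09 (SD over 18 spots), just over the percentile, and the 17-base probe 3.23 ± 2.27 (SD over 20 spots), near the mean of the negative controls (2.87). On B2, 27 of the 459 probes (5.88%) had a mean above the percentile, so such a level on its own is not particular to miR-203.

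**Figure D1:**
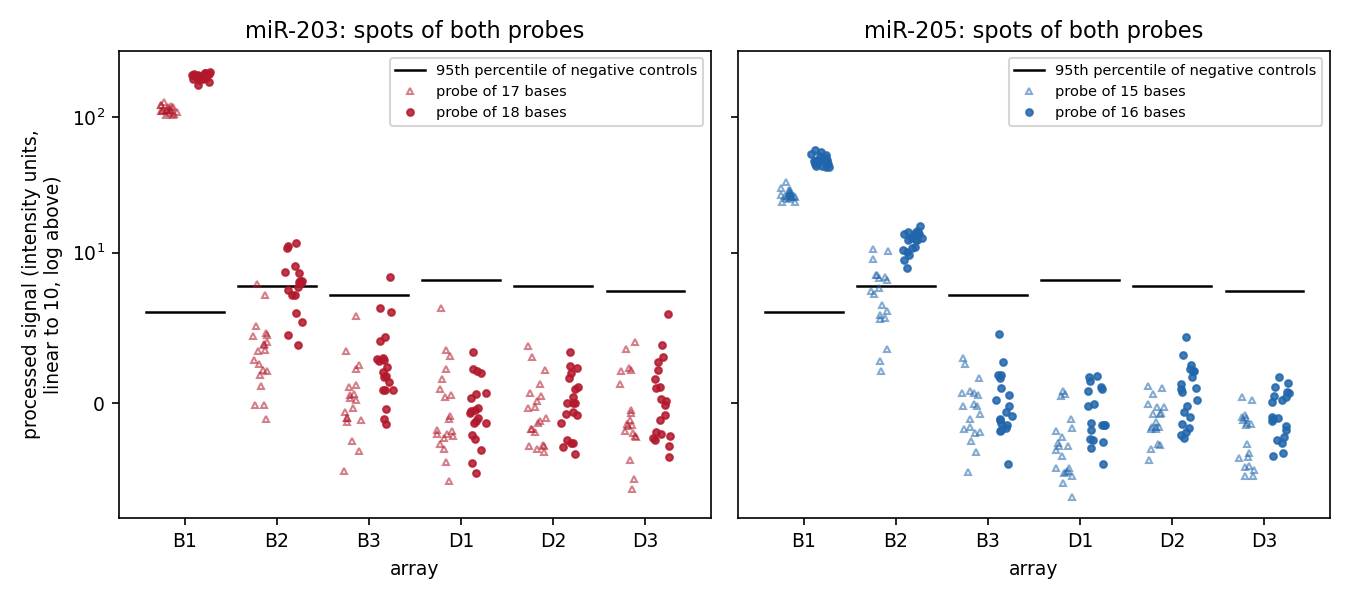
Processed signal of every spot without an outlier flag (y axis, intensity units, linear up to 10 and logarithmic above) by array (x axis), for miR-203 on the left and miR-205 on the right; triangles are the shorter probe, filled circles the longer, and black lines the 95th percentile of negative-control spots. B1 stands above that line with every spot of both miRNAs, and on B2 the 16-base miR-205 probe lies above it with all 20 spots, at a mean of 12.3.

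The detection flag follows a limit that can be read from the files. On all 6 arrays it was set for exactly those miRNAs with at least 1 probe whose total probe signal exceeded 3 times its error, for 289 of 289 miRNAs. On B1 the longer probes stood at 9.90 times the error for miR-203 and 8.70 times for miR-205. On B2 they stood at 1.83 and 2.80, on B3 at 0.80 and -0.02, and on the dim arrays between -0.31 and 0.22. miR-205 on B2 was thus just under the limit, and miR-203 clearly under it. At 2.5 times the error, a limit chosen after the data were examined, miR-205 would be detected on B2 too, along with 5 other miRNAs, together 3.03% of those undetected there. No negative-control probe passed that limit on any array.

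**Figure D2:**
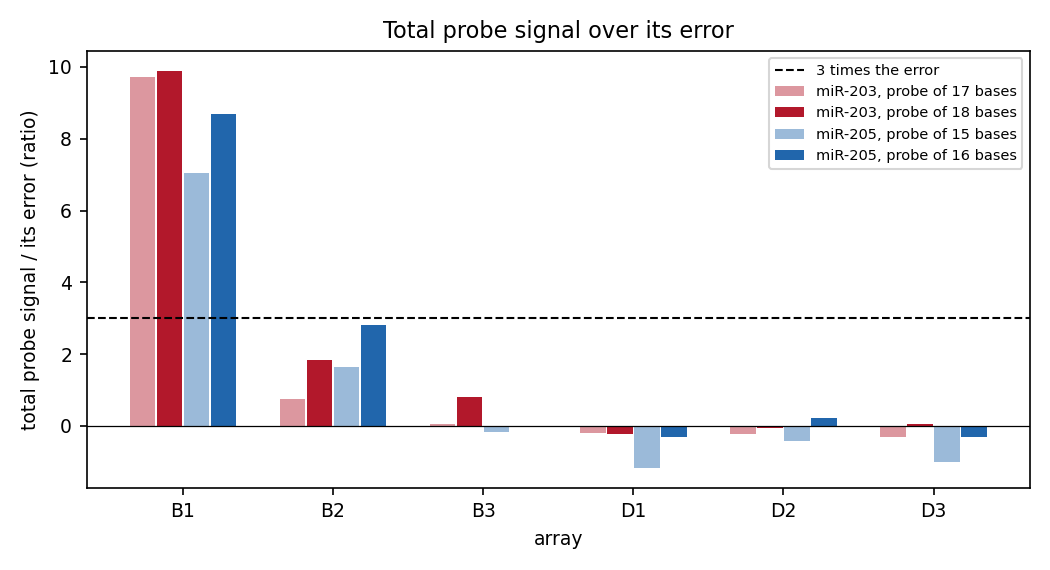
Total probe signal divided by its own error (y axis, ratio) for each of the 4 probes on each array (x axis), with bars for probes and a dashed line at 3, the limit of the detection flag. The bars of B1 reach 7.04 to 9.90, the 16-base probe of miR-205 on B2 reaches 2.80, and every bar on B3 and the dim arrays is under 1.

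24 of the 289 miRNAs (8.3%) were detected on B1 alone, and all of these have the same count by fraction. miR-203 and miR-205 are among them, each detected in 1 of 3 Sca1+ samples and 0 of 3 Sca1- samples. This held by scanner file and by value table alike. Fisher's exact test, two-sided, gave p = 1 for each, and 3 samples against 3 cannot give a p below 0.1. At the limit of 2.5 times the error the count for miR-205 becomes 1 of 3 in both fractions. The groups overlap for both miRNAs, since 2 of the 3 Sca1+ arrays have no detected signal, like all Sca1- arrays.

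The dim arrays could show these miRNAs only in part. On B1 miR-203 made up 0.610% of the summed total gene signal and miR-205 0.146%. The same share would give miR-203 a signal of 19.7 on D1, where the lowest detected miRNA had 10.4, of 7.78 on D2 (lowest 7.51) and of 1.95 on D3 (lowest 12.6). For miR-205 it would be 4.73, 1.87 and 0.47, under the lowest detected signal of each dim array. At this depth miR-205 was not detectable on the dim arrays at its B1 share, nor was miR-203 on D3. On D2 the 7.78 for miR-203 would be the sum of both probes. The flag needs 1 probe over 3 times its error, and the error of the 18-base probe on D2 was 3.49. At its B1 share miR-203 would thus have been undetected on D2 too, although 7.78 is above the lowest detected signal. In bulk samples, fewer cells with a miRNA and less of it per cell cannot be told apart.

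On B2 and B3 the same share would have been plain. It would give miR-203 a signal of 432 on B2 and 428 on B3, and miR-205 one of 104 and 103, against lowest detected signals of 9.13 and 7.82. The sum of both total probe signals, taken whether or not the flag was set, was 14.9 on B2 and 3.68 on B3 for miR-203. For miR-205 it was 26.0 on B2 and -0.75 on B3. Neither miRNA was flagged as detected on these arrays, so these are sums of signals under the detection limit. They are not upper limits of the level and give no ratio to B1.

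**Figure D3:**
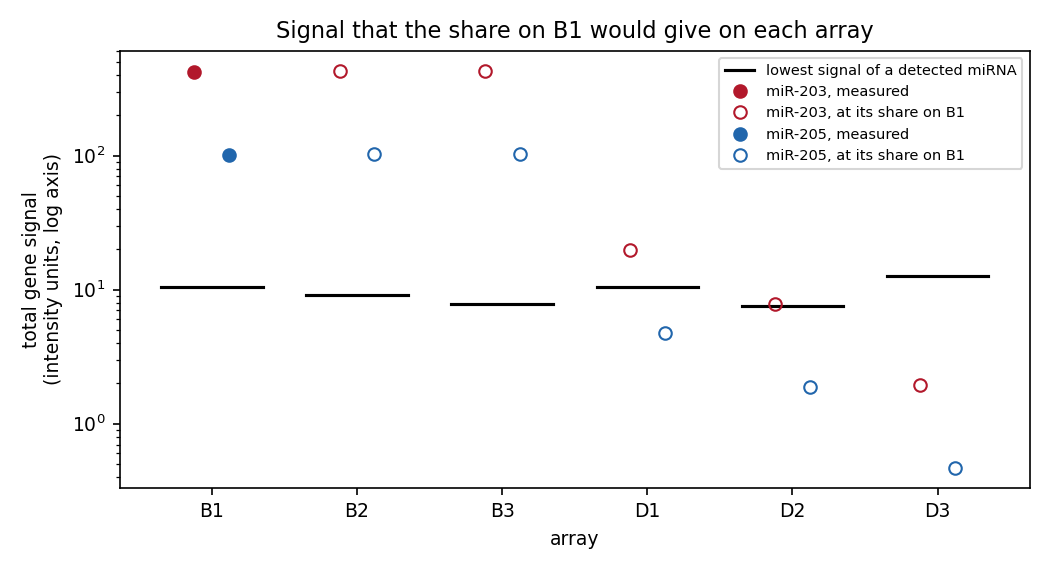
Total gene signal (y axis, intensity units, log axis) by array (x axis); filled circles are the measured signals on B1, open circles the signals that the same share of the summed signal would give on each other array, and black lines the lowest signal of a detected miRNA. The open circles lie far above the lines on B2 and B3, and on the dim arrays all 3 for miR-205 and that of miR-203 on D3 (1.95) lie under them.

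Sca1+ and Sca1- samples were then compared with limma over all arrays, within lines, on log2 signals scaled between arrays. Neither miRNA passed. Of 124 miRNAs detected on at least 1 array, 0 passed the adjusted p threshold of 0.05 (0%), and 4 had an unadjusted p under 0.05. miR-203 differed by 0.68 on the log2 scale (Sca1+ minus Sca1-, n = 3 pairs, SE 2.14) and miR-205 by 0.93 (SE 2.58), with a limma adjusted p of 0.995 for each. The median of all tested miRNAs was -0.66. Brightness was not balanced between the fractions. By scanner file, the P114 pair set the dim D3 (Sca1+) against the bright B3 (Sca1-). By value table, the CMT-U27 pair set the dim D1 (Sca1+) against the bright B2 (Sca1-). The part of brightness in these differences was not tested. By scanner file, CMT-U309 is the one line with a measured level, and there the Sca1+ array (B1) was at least 5.77-fold higher than the Sca1- array (B2) for miR-203 and at least 1.39-fold higher for miR-205. In CMT-U27 and P114 both arrays were undetected, so neither a direction nor a size is given for these lines. The fitted differences rest on those undetected signals. Over 16 alternatives the adjusted p ran from 0.687 to 0.999 for each miRNA, and the sign of the difference turned in 3 for miR-203 and in 4 for miR-205.

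The lines were compared with the fraction as a term. No miRNA of 124 passed (0%), with 10 at an unadjusted p under 0.05. miR-203 had an adjusted p of 0.546 with limma and miR-205 one of 0.546. Without D3 (n = 5 arrays), 9 miRNAs passed, miR-205 among them (adjusted p = 0.0377 with limma), and without B3, 15 passed and neither miR-203 (adjusted p = 0.0882) nor miR-205 (0.133) did. miR-205 was detected on B1 alone, so its values on the other arrays of these fits are signals under the detection limit, and without D3 the line P114 is 1 array. The call without D3 therefore supports nothing about miR-205. In the assignment of the value table, none of 124 passed either (0%), with adjusted p = 0.710 for miR-203 and 0.973 for miR-205 with limma. Both arrays of CMT-U27 are dim by scanner file and both of CMT-U309 bright. By value table both arrays of P114 are bright and both of CMT-U309 dim. Line and brightness therefore cannot be told apart in either reading.

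B1 was then set against B2 and B3, the bright arrays, chosen with their brightness known. Each has the same fraction in both sources, while the line of B1 and of B2 differs between them. D1, of the same line and fraction in both sources, was left out because it is dim. This comparison has 1 Sca1+ array, so fraction and sample cannot be told apart. B1 exceeded B2 and B3 at least 8.67-fold for miR-203 and at least 2.10-fold for miR-205. These are lower bounds: the mean of B1 over the mean, over B2 and B3, of the probe's own signal or the array's lowest probe well above background, whichever was higher. The bound of miR-203 was 8.51 over B2 alone and 8.83 over B3 alone, and that of miR-205 2.06 and 2.13. With the 17-base probe the bound of miR-203 was 4.97, and with the 15-base probe that of miR-205 was 1.17. Scaled over the 10 probes common to all 6 arrays, the bound of miR-203 was 5.77 over B2, 8.66 over B3 and 1.5 over D1, and that of miR-205 was 1.39 over B2 and 2.09 over B3. Over the other dim arrays the bounds were under 1, and for miR-205 also over D1, so no fold is given. Over 4 scalings of the bright arrays they ran from 6.31 to 10.8 for miR-203 and from 1.53 to 2.62 for miR-205.

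In the limma fit of the same 3 arrays, 1 of 123 miRNAs passed (0.813%), with 18 at an unadjusted p under 0.05, and it was neither of these. It was miR-138a, named after its values were seen, whose bound over B2 and B3 is under 1, so no fold is given. miR-203 differed by 6.20 (log2, SE 1.99, adjusted p = 0.314 with limma, n = 1 and 2) and miR-205 by 6.94 (SE 6.16, adjusted p = 0.547). These sizes are not exact, because signals near 0 on B2 and B3 set them, and the median of all tested miRNAs was 0.34. Over the 9 alternatives the adjusted p ran from 2.39e-08 to 0.489 for miR-203 and from 0.000204 to 0.751 for miR-205 with limma. Both miRNAs entered this fit through B1, the one array of its group, so none of these p-values supports a call, and the direction was fixed by the choice of arrays. Of the 123 miRNAs, 58 passed when undetected signals were raised to the detection limit, 87 with normexp background and 33 with the total gene signal. In the first and last of these settings B2 and B3 hold a set value in place of a measured one, which leaves little spread between them.

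The detection pattern of the pair was shared by many miRNAs. 24 of the 289 miRNAs (8.3%) were detected on B1 alone of the 6 arrays, 19.4% of the 124 detected anywhere. 5 were detected on B2 alone, 2 on B3 alone, 1 on D1 alone and none on D2 or D3 alone. Of the 24, 7 had a bound above 1 (29.2%), miR-203 and miR-205 among them. Likeness within this pattern was measured by the log2 bound. Nearest to miR-203 (log2 bound 3.12) were miR-429, of the miR-200 family, at least 5.10-fold higher on B1; miR-146a, induced by inflammatory signalling, at least 17.3-fold; miR-342, at least 4.22-fold; miR-205; and miR-200c, which represses ZEB1, at least 40.2-fold. Nearest to miR-205 (log2 bound 1.07) were miR-9, known from neural tissue, at least 1.23-fold higher; miR-342; and miR-374b, miR-340 and miR-181a, whose bounds were under 1. For miR-9 the bound was 0.895 with scaling over all probes.

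**Figure D4:**
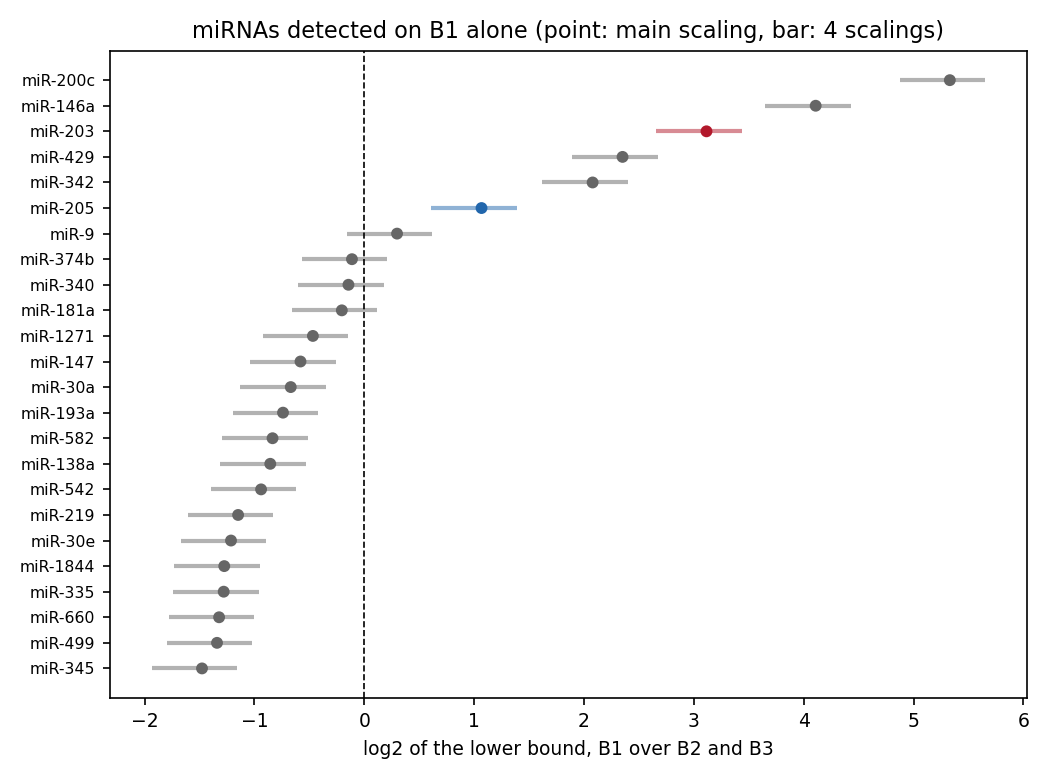
Lower bound of the level on B1 over B2 and B3 (x axis, log2) for each of the 24 miRNAs detected on B1 alone (y axis); points are the main scaling, bars run over 4 scalings, and the dashed line marks equality. miR-203 (red) is at 3.12 and miR-205 (blue) at 1.07, both with bars wholly above 0.

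The other miRNAs of the same roles were read from lists chosen with earlier results of these data known. Of the 4 basal and squamous epithelial miRNAs on the array, miR-203 and miR-205 were detected and miR-31 and miR-184 were not, on any array. Of the 6 ZEB-repressing miRNAs, B1 detected 4 (miR-141, miR-200c, miR-429 and miR-205), B2 detected 1 (miR-141) and B3 none. Over all 289 miRNAs, 124 (42.9%) were detected on at least 1 array, and B1 detected 111, B2 91 and B3 89. No list here or below was tested against those shares. The total gene signal of miR-141, not scaled between arrays, was 2839 on B1, 28.9 on B2 and 23.9 on D2. The summed signal was 1277 on D2, against 69282 on B1 and 70794 on B2. The 23.9 is therefore a larger share of its array than the 28.9 is of B2. miR-200a and miR-200b, the other family members, were undetected on every array. B1 thus held the highest unscaled signal of miR-205 and of each detected miR-200 member.

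Of the 5 p63-linked miRNAs on the array, miR-203 and miR-205 were detected on B1 alone, and miR-34a, which p63 represses and p53 induces, ran the other way. B1 had a total gene signal of 37.5 for it, against 444 on B2 and 363 on B3. The other members, miR-34b and miR-34c, were undetected on all arrays. All 3 members of the miR-183 cluster, found in sensory cells and many epithelia, were detected on each bright array and on no dim one. Their summed signal was 1016 on B1, against 329 on B2 and 405 on B3. Of 7 glandular epithelial miRNAs, miR-342 alone was detected, at 184 on B1.

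Markers of other cells also differed between B1 and the other bright arrays. Of 6 mesenchymal and stromal miRNAs, miR-199 was detected at 245 on B2 and 193 on B3 and not on B1, and miR-140 at 19.9 on B1, against 390 on B2 and 430 on B3. miR-214, miR-143, miR-145 and miR-218 were undetected on every array. The list summed to 19.9 on B1, against 635 on B2 and 623 on B3. Of 6 leukocyte and macrophage miRNAs, B1 and B3 detected 3 each and B2 detected 2, with summed signals of 948, 219 and 182. miR-146a was at 690 on B1 alone, and miR-155 at 189, 139 and 78.0. miR-223, a myeloid miRNA, had an unscaled signal between 59.6 and 80.9 on all 6 arrays, while summed signals ran from 320 to 70794. Its share of the signal was thus far from even, and what its level signal measures was not tested. miR-142 and miR-150, of blood cells, were undetected on every array. The endothelial miR-126 and the liver miRNA miR-122 were undetected too, and of 2 erythroid miRNAs miR-451 was at 18.1 on B2 and 39.4 on D2. Of 8 muscle miRNAs 1 was detected on B1 (miR-499, at 12.9), and of 5 neural ones 3 (miR-9, miR-128 and miR-219). The part of these other cell types in the levels of miR-203 and miR-205 was not tested.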

How the data were processed

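All 6 samples were hybridised to 1 slide, scanned on 1 date, in 1 green channel, while the labels name the dye Cy5. The deposited scanner files hold spot intensity from Agilent Feature Extraction (10.10.1.1 per the file headers, 10.7.3.1 per the submitters' processing notes), background-subtracted and spatially detrended by the authors, and not scaled between arrays. The deposited value table holds linear intensity. Each of its columns equalled the total gene signal of 1 scanner file for all 311 features (relative tolerance 0.0001), for 4 of 6 columns that of another sample. The main analysis followed the scanner files. Deposited flags, coded 0 or 1, mark detection, background and outliers.

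Signals at or below 0 were raised to the array's lowest positive signal before taking log2. Arrays were scaled to the 75th percentile over probes well above background (a share over 0.5 of the spots) on all arrays of the fit: 10 probes on 6 arrays, 122 on the bright 3. Outlier-flagged spots were left out, and each miRNA was read from its brightest probe. Those detected on 1 array or more were tested with limma 3.58.1 in R 4.3.3, with terms for line and fraction (fraction alone on the bright arrays), leaving 2 and 1 residual degrees of freedom, and Benjamini-Hochberg adjustment. The line pairs the samples, since both fractions were sorted from it. Bright means over 50 detected miRNAs. The number of arrays limits the precision.

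The members, lists and tests were chosen with earlier results of these data known. miRNAs were named as members, as members of the lists, or as the 5 with the same detection pattern and the nearest log2 bound. Mature sequences and seeds were not used here.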

Additional observations from a re-analysis of the deposited data

Results flagged for a closer look

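2 values were noted because they come from spots of miRNAs that the files call undetected on that array, and because they exceed the 95th percentile of the negative-control spots of their array (7.80 on B2). The 16-base probe of miR-205 on B2 had a mean spot signal of 12.3, and the 18-base probe of miR-203 on B2 one of 7.88. B2 is Sca1- in both sources. In the comparisons of levels these signals enter only as values under the detection limit. On B2 5.88% of probes of undetected miRNAs had a mean above that percentile, against 1.91% on B1, 1.08% on B3 and 0% to 0.164% on the dim arrays.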

How the results depend on the processing

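The count of miRNAs past the threshold between Sca1+ and Sca1- over all arrays was 0 in the main fit and in all 18 alternatives, among them the value-table assignment and the fit with no replicate block (no line term), which gave 0 with log2 differences of 0.68 for miR-203 and 0.93 for miR-205. The sign of miR-205 turned with quantile scaling (-0.61), and those of miR-203 and miR-205 without scaling (-0.38 and -0.13). That of miR-203 turned by the value table (-0.29). Leaving out 1 array at a time gave -0.99 to 2.76 for miR-203 and -1.91 to 3.94 for miR-205, with no value without B1. Among the lines the count was 1 with the total gene signal and 0 to 15 when 1 array was left out, where miR-205 had an adjusted p between 0.0377 and 0.999 with limma, set by signals below background. On the bright arrays the count, 1 in the main fit, was 87 with normexp background, 58 with a floor at the detection limit, 33 with the total gene signal, 8 with scaling over all probes, 4 with a filter of at least 2 arrays, and 0 with quantile scaling, no scaling, probes averaged, no filter or outlier spots kept. There miR-203 and miR-205 differed by 1.82 and 1.21 with normexp, 3.12 and 1.07 with the floor, and 11.49 and 9.43 with the total gene signal, in a fit with 1 Sca1+ array that supports no call. The lower bound of miR-203 was 6.31 with scaling over all probes, 7.91 with quantile scaling, 10.8 with none, 6.56 with both probes averaged and 4.97 with the shorter probe alone. For miR-205 these were 1.53, 1.70, 2.62, 1.57 and 1.17. The excess of Sca1+ over Sca1- arrays that detect miR-205, 1 at the limit of the files, was 0 at 2.5 and at 2 times the error, limits chosen after seeing the data. The cause of these changes was not tested. Leaving out an array of the bright comparison leaves no residual degrees of freedom, so it gave bounds alone. On the 3 dim arrays the signal over background limits what can be detected.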
